A study of Mus musculus with 6 samples.

Results

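Toll-like receptors, NOD sensors and the NF-kB proteins they signal through were followed in clear cells of the mouse epididymis as a set of 43 named genes. The members were the rows of the deposited expression table whose gene name matched a list of receptors, adaptors, kinases, NF-kB subunits and inhibitors, and all 43 were found among its 37578 genes. Of these, 37 passed a filter on low counts and were tested, while Tlr1, Tlr7, Tlr9, Nlrp3, Nlrp6 and Nlrp10 did not pass.

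Toll-like receptors (TLRs) sense microbial lipids, proteins and nucleic acids, and pass the signal through adaptors such as MyD88 and TRIF to IRAK kinases, TRAF ubiquitin ligases and the kinase TAK1. In the canonical arm, an IkB kinase complex marks IkB proteins for destruction and so frees NF-kB dimers such as p50 with RelA. In the non-canonical arm, TNF-family receptors stabilise the kinase NIK, which has the precursor p100 (product of Nfkb2) processed to p52, the partner of RelB. NOD1 and NOD2 sense bacterial cell wall fragments in the cytosol and signal through RIPK2.

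Clear cells are proton-secreting epithelial cells of the duct in which sperm mature. They had been sorted in a pair of rounds by EGFP, which the transgene places under the promoter of ATP6V1B1, a proton pump subunit. All mice carried that transgene, were 12 weeks old and received no treatment. The groups were the caput, corpus and cauda (proximal, middle and distal duct), with 2 RNA-seq libraries each, and every library pooled 12 epididymides. The cells therefore are those in which this promoter drives EGFP, and the labels do not say whether the pools of a region came from separate mice, and the p-values can speak only of how far these libraries spread.

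Reads in genes numbered from 18887128 to 24700717 per library. Levels between regions are given as CPM, read counts relative to a TMM-scaled library size, and levels between genes as deposited RPKM, which is per length. Fold changes are log2 values ± SE from edgeR's quasi-likelihood test, positive where the first region named was higher, and a gene was called at an adjusted p under 0.05 over all 15816 tested genes. In these bulk samples, fewer cells of a type and less RNA per cell cannot be told apart.

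The marker lists also differed between the regions. The summed level of 12 clear cell markers was 9670 and 9170 CPM in the caput libraries, 2550 and 2950 CPM in corpus, and 947 and 1200 CPM in cauda, and all 12 were called higher in caput than in cauda. Of 10 principal cell markers, 7 were called higher and 3 lower in caput than in cauda, with sums of 1680 and 2970 CPM in caput against 5890 and 6390 CPM in cauda. All 8 basal cell markers were detected, with sums of 285 and 381 CPM in caput and 131 and 95.2 CPM in cauda, and 7 were called higher in caput. The 17 mononuclear phagocyte markers summed to 127 and 201 CPM in caput, 95.8 and 140 CPM in corpus, and 75.5 and 133 CPM in cauda, mostly Cd74, and 3 were called higher and 1 lower in caput than in cauda. In that list Cd163, a macrophage receptor, had 1 read or none in each library. Of 18 immediate early and dissociation genes, 17 were called higher in caput than in cauda, and their sums were 9180 and 8950 CPM in caput, 7490 and 6690 CPM in corpus, and 4200 and 3960 CPM in cauda. Neutrophil markers summed to 53.1 and 31.1 CPM in cauda, nearly all S100a8, and to at most 0.168 CPM in the other libraries, and Cxcr2 and Mpo had no read in any library. The lists of stromal and muscle (sums of 589 and 644 CPM in caput, 167 and 157 in corpus, 444 and 529 in cauda), endothelial (25 and 29.1, 14.1 and 12.9, 5.53 and 8.72), lymphocyte (4.93 and 27.1, 21.9 and 32.9, 4.07 and 19.4) and sperm genes (65 and 247, 38.1 and 81, 53.1 and 109) also varied. Of all tested genes, 33.9% were called higher and 33.0% lower in caput than in cauda. The part of all these markers in the results that follow was not tested.

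Most tested members were called higher in caput than in the other regions. In caput against cauda, 25 of the 37 were called higher and 6 lower, where 66.9% of all tested genes were called, 33.9% as higher and 33.0% as lower. In caput against corpus, 27 were called higher and 4 lower, where 65.0% of all tested genes were called, 33.2% as higher and 31.8% as lower. In corpus against cauda, 11 were called higher and 7 lower, where 35.4% of all tested genes were called, 17.3% as higher and 18.0% as lower. The members' median log2 difference was 0.98 for caput against cauda, 0.79 for caput against corpus and 0.06 for corpus against cauda, beside 0.04, 0.04 and 0 over all tested genes. With the gene length trend removed, the members' medians were 0.76, 0.52 and 0.05 in the same order, beside -0.01, 0 and 0. With library totals in place of TMM, the median over all genes moved up by 0.86, 0.59 and 0.27 for the same comparisons in that order, and the counts became 32 higher and 4 lower, 32 higher and 1 lower, and 14 higher and 5 lower.

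**Figure D1:**
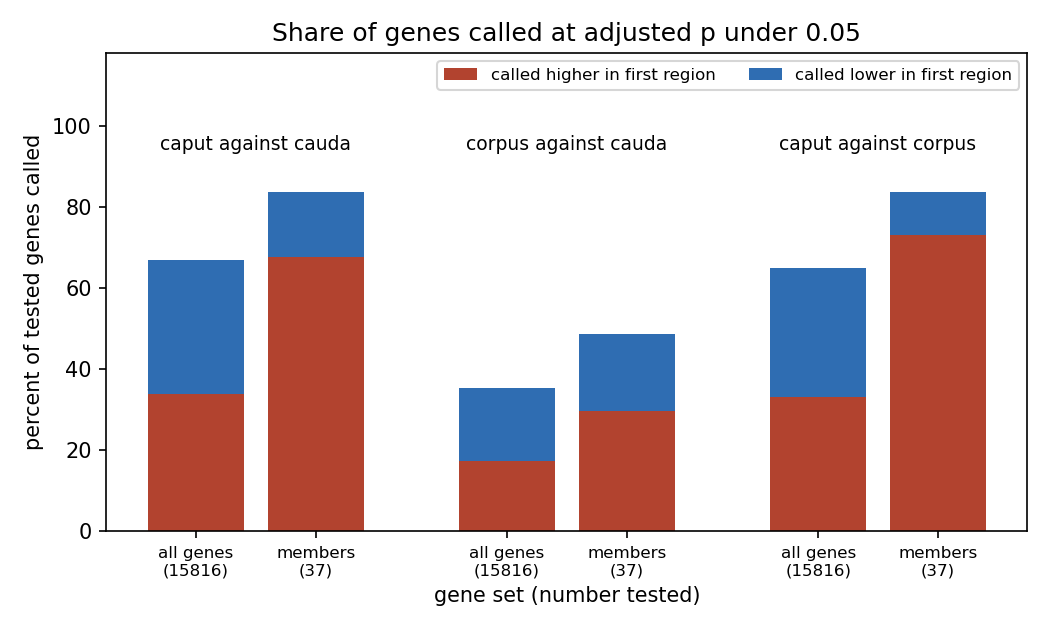
Percent of tested genes called (y axis) in each comparison (bars by comparison and gene set, with the number tested), split into higher and lower in the first region. Of 37 members, 25 are called higher in caput than in cauda, beside 33.9% of all tested genes.

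Read by region, 24 of the 37 tested members were called higher in caput than in both other regions, a share of 64.9% where 26.8% of all tested genes met the same criterion. Another 5 members were called higher in cauda than in both others (13.5%, beside 12.6% of all tested genes). Myd88, Map3k7, Nod1 and Ripk2 were called in no comparison under TMM scaling. With library totals the median over all genes moved up by 0.86 for caput against cauda, so these genes were not shown to be level under both scalings. The members that passed the filter were more abundant and longer than the typical tested gene, with medians of 22.1 CPM against 14.3 CPM and 4402 against 3405 bases. Among genes of at least 5 CPM in their highest region, a background added after the data had been seen, 75.7% were called in either direction for caput against cauda, 73.4% for caput against corpus and 42.3% for corpus against cauda. These shares are not split by direction, and no member share at the same cut is set beside them.

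**Figure D2:**
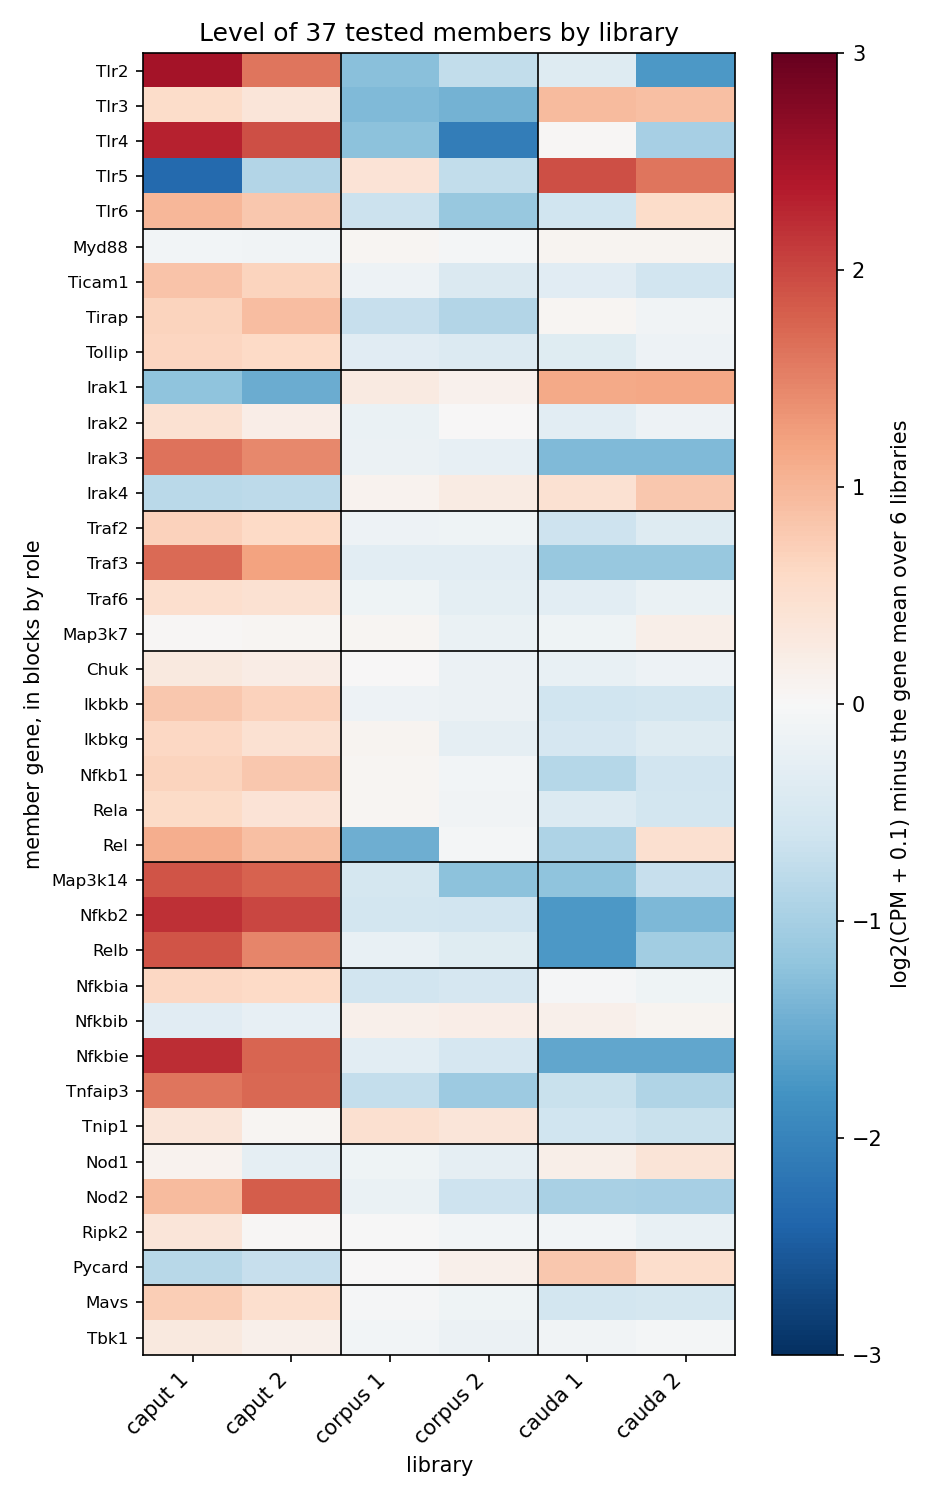
Level of the 37 tested members (rows, in blocks by role) in the 6 libraries (columns), as log2(CPM + 0.1) minus the gene's mean over the libraries. Red blocks in both caput libraries mark the 24 members called highest in caput, and Irak1, Irak4, Pycard and Tlr5 run the other way.

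The TLR genes differed in where along the duct they were highest. Tlr3, a sensor of double-stranded RNA in endosomes, had 13.05 and 11.4 CPM in the caput libraries, 3.47 and 3.29 CPM in corpus and 17.2 and 16.6 CPM in cauda. Corpus was lowest without overlap, by -2.32 ± 0.17 against cauda (adjusted p = 8.9e-06) and by 1.85 ± 0.17 in caput against corpus (adjusted p = 9.15e-06). Caput was lower than cauda by a small amount (-0.47 ± 0.15, adjusted p = 0.0193), a call lost without caput replicate 2, cauda replicate 1 or cauda replicate 2 (adjusted p = 0.104, 0.101 and 0.0699), with DESeq2 (0.0695) or with no filter on low counts (0.0702), and reversed to 0.39 with library totals.

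Tlr4, the receptor for bacterial lipopolysaccharide, had 6.28 and 4.82 CPM in caput, 0.448 and 0.203 CPM in corpus, and 1.22 and 0.545 CPM in cauda. Both caput libraries lay above all others, and caput exceeded cauda by 2.65 ± 0.45 (adjusted p = 0.000578) and corpus by 4.09 ± 0.51 (adjusted p = 8.37e-05). Without cauda replicate 1 the difference from cauda was 3.34, and without corpus replicate 1 that from corpus was 4.73. Corpus and cauda did not pass the test (-1.44 ± 0.57, adjusted p = 0.0803).

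Tlr2, which recognises bacterial lipoproteins, was rarer still, at 2.79 and 1.43 CPM in caput against 0.112 and 0.203 CPM in corpus and 0.291 and 0.0545 CPM in cauda. Caput was again above all other libraries, with 137 reads over its libraries and 6 reads in cauda. The caput level was 12.8 times that of cauda (95% counting interval 5.73 to 35.5), and the fitted difference of 3.60 ± 0.73 (adjusted p = 0.00174) ran from 2.84 without cauda replicate 2 to 5.15 without cauda replicate 1. Against corpus, also with 6 reads, the caput level was 13.5 times as high (6.07 to 37.5, adjusted p = 0.00158). Intervals and floors of this kind cover counting error only.

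Tlr5, the flagellin receptor, ran the opposite way, with 0.235 and 0.820 CPM in caput, 2.13 and 0.912 CPM in corpus, and 6.34 and 5.02 CPM in cauda. Both cauda libraries lay above the rest, and caput was lower than cauda by -3.44 ± 0.60 (adjusted p = 0.000862), or by -2.78 without caput replicate 1 and -4.56 without caput replicate 2. Corpus was lower than cauda by -1.91 ± 0.55 (adjusted p = 0.0272), but without corpus replicate 2, cauda replicate 1 or cauda replicate 2 the adjusted p was 0.175, 0.150 or 0.0864, and without corpus replicate 1 the difference was -2.62. Caput and corpus did not pass the test (adjusted p = 0.0531).

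The remaining receptors were near the limit of detection. Tlr6, which pairs with TLR2, had 33 reads over the caput libraries, 3 in corpus and 9 in cauda, and caput was 6.52 times corpus (95% counting interval 2.05 to 33.2, adjusted p = 0.0239). That call was lost without corpus replicate 1 (adjusted p = 0.105), corpus replicate 2 (0.205), caput replicate 1 (0.0782), cauda replicate 1 (0.0505) or cauda replicate 2 (0.0570), and with DESeq2 (0.115). Tlr1, Tlr7 and Tlr9 had at most 0.524 CPM in any library, beside a floor of 0.0880 to 0.175 CPM per library that 3 reads would give. They were not tested, with 8, 3 and 13 reads over the caput, corpus and cauda libraries for Tlr1 and 4, 6 and 1 for Tlr7. Tlr9 had 0 reads over the caput libraries, 5 over corpus and 16 over cauda, and the regions did not overlap.

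**Figure D3:**
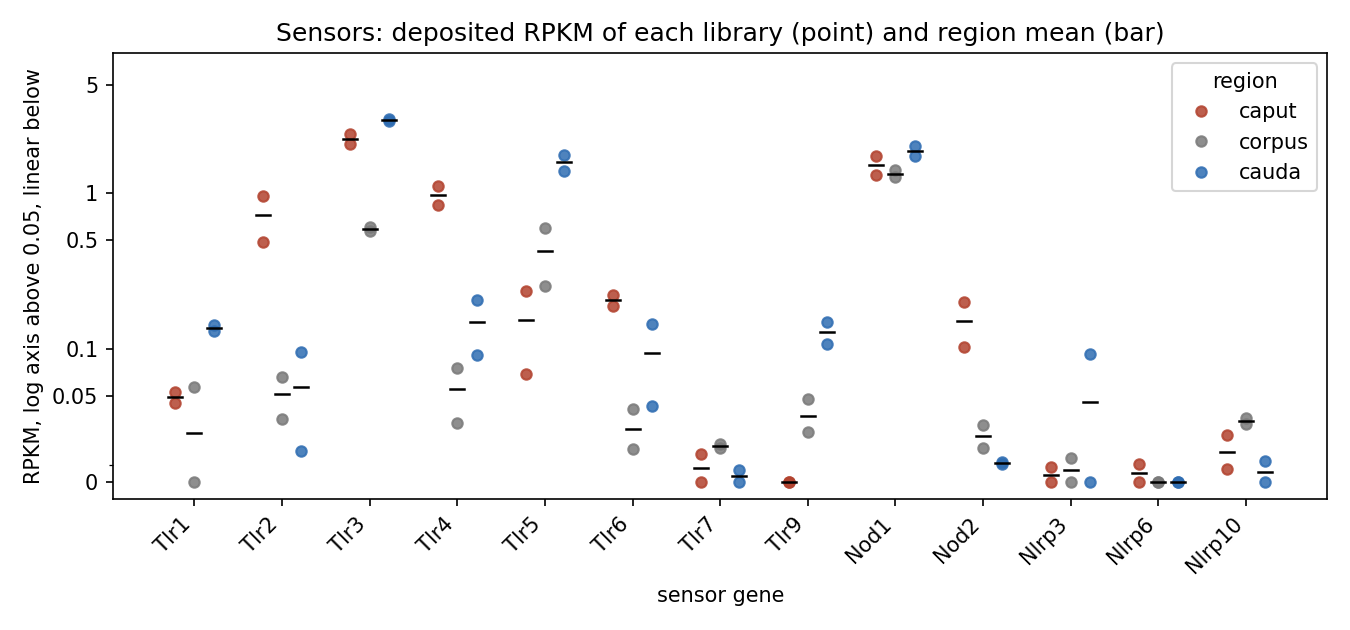
Deposited RPKM of each sensor gene (x axis) in each library (points) with the region mean (bars); the y axis is a log axis above 0.05 RPKM and linear below. Tlr2 and Tlr4 are highest in both caput libraries, Tlr5 in both cauda libraries, and Tlr3 is lowest in corpus.

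Among the adaptors, Myd88, the adaptor shared by nearly all TLRs and the interleukin-1 receptors, stayed between 35.1 and 40.1 CPM. It had 35.7 and 35.1 CPM in caput, 39.4 and 36.2 CPM in corpus, and 40.1 and 40.1 CPM in cauda, and no comparison was called (adjusted p = 0.123, 0.532 and 0.412 for caput against cauda, corpus against cauda and caput against corpus). The flat level depends on the TMM factors, which were 1.381 and 1.415 in caput and 0.7612 and 0.7798 in cauda. Before scaling, Myd88 had 1216 and 1028 reads in the caput libraries, of 24700717 and 20724911 in genes. In cauda it had 689 and 736 reads, of 22593268 and 23532405. In the reference annotation 290 exon bases of Myd88 lie opposite Acaa1a, and unstranded counting cannot part reads from such a pair.

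The other adaptors differed. Ticam1, which encodes TRIF, the adaptor of TLR3 and TLR4, had 28.45 and 24.8 CPM in caput, 14.1 and 11.55 CPM in corpus, and 12.3 and 10.4 CPM in cauda. Caput lay above both other regions without overlap, by 1.23 ± 0.16 against cauda (adjusted p = 9.46e-05) and by 1.05 ± 0.16 against corpus (adjusted p = 0.000267). Tirap, the bridging adaptor of TLR2 and TLR4, had 16.7 and 20.15 CPM in caput, 6.44 and 5.68 CPM in corpus, and 11.0 and 9.81 CPM in cauda. It was lowest in corpus, with caput above corpus by 1.60 ± 0.17 (adjusted p = 2.72e-05) and corpus below cauda by -0.78 ± 0.17 (adjusted p = 0.00692). The latter call was lost without corpus replicate 2 (adjusted p = 0.0610) or cauda replicate 1 (0.0555).

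Tollip, which encodes a protein that dampens IRAK1, had 99.75 and 96.0 CPM in caput, 50.0 and 47.9 CPM in corpus, and 49.05 and 57.4 CPM in cauda. Caput was higher than cauda by 0.88 ± 0.10 (adjusted p = 2.87e-05) and than corpus by 1.00 ± 0.10 (adjusted p = 1.37e-05), and corpus and cauda did not pass the test.

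The IRAK kinases went in opposite directions. Irak1, the kinase that carries the signal from MyD88 to TRAF6, had 102 and 84.8 CPM in caput, 287 and 257 CPM in corpus, and 521 and 530 CPM in cauda. No libraries of different regions overlapped, and caput was lower than cauda by -2.49 ± 0.11 (adjusted p = 5.73e-08), corpus lower than cauda by -0.95 ± 0.10 (adjusted p = 8.93e-05) and caput lower than corpus by -1.54 ± 0.10 (adjusted p = 1.22e-06). By mean RPKM Irak1 ranked 10 of the 43 members in caput and 2 in corpus and in cauda. Irak4, the kinase that activates IRAK1, had 7.77 and 7.92 CPM in caput, 14.6 and 16.2 CPM in corpus, and 18.7 and 23.9 CPM in cauda. Caput was again lowest, by -1.44 ± 0.16 against cauda (adjusted p = 3.38e-05) and -0.97 ± 0.16 against corpus (adjusted p = 0.000521), the latter not called with library totals (-0.38, adjusted p = 0.0626). The smaller difference of corpus from cauda (-0.47 ± 0.16, adjusted p = 0.0451) was lost without corpus replicate 1, corpus replicate 2 or cauda replicate 2 (adjusted p = 0.238, 0.105 and 0.319), with DESeq2 (0.0974) and with library totals (0.357). Irak4 shares 395 exon bases with Twf1 on the opposite strand.

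Irak3 encodes IRAK-M, a family member that restrains TLR signalling, and it was highest in caput. Its levels were 14.1 and 12.3 CPM in caput, 3.98 and 3.75 CPM in corpus, and 1.75 and 1.75 CPM in cauda, with no overlap between regions. Caput exceeded cauda by 2.92 ± 0.22 (adjusted p = 1.98e-06) and corpus by 1.77 ± 0.20 (adjusted p = 3.78e-05), and corpus exceeded cauda by 1.14 ± 0.22 (adjusted p = 0.00349). Irak2, a kinase of the later TLR response, spanned 9.19 to 15.7 CPM over the 6 libraries. It was called higher in caput than in cauda (0.57 ± 0.16, adjusted p = 0.0115) and corpus (0.44 ± 0.16, adjusted p = 0.0371). Without caput replicate 1 these became adjusted p = 0.0696 and 0.190, without cauda replicate 1 0.0789 and 0.0518, and the corpus call was also lost without corpus replicate 1 (0.211), corpus replicate 2 (0.0613) or cauda replicate 2 (0.0548) and with DESeq2 (0.0855). With the gene length trend removed, the differences shrank to 0.20 (adjusted p = 0.312) and 0.09 (adjusted p = 0.640).

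Below the IRAK kinases, Traf3, whose product keeps NIK low and also serves the interferon branch of TLR signalling, had the largest difference among the TRAF genes tested here. It had 37.25 and 26.3 CPM in caput, 9.18 and 9.12 CPM in corpus, and 5.18 and 5.18 CPM in cauda. The regions did not overlap, with caput above cauda by 2.62 ± 0.19 (adjusted p = 1.86e-06) and above corpus by 1.80 ± 0.18 (adjusted p = 1.9e-05). Corpus was above cauda by 0.82 ± 0.20 (adjusted p = 0.0104), a call that leaving out any of the corpus or cauda libraries ended (adjusted p from 0.0578 to 0.0701).

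Traf2, a ubiquitin ligase adaptor of TNF-family receptors, had 51.3 and 48.1 CPM in caput, 28.6 and 29.0 CPM in corpus, and 20.5 and 24.4 CPM in cauda. Caput was higher than cauda by 1.15 ± 0.11 (adjusted p = 1.6e-05) and than corpus by 0.79 ± 0.11 (adjusted p = 0.000204). Corpus against cauda (0.36 ± 0.12, adjusted p = 0.0388) was lost without corpus replicate 1, corpus replicate 2 or cauda replicate 1 (adjusted p = 0.119, 0.142 and 0.238), with DESeq2 (0.0657) and with the gene length trend removed (0.0532). Traf6, the ligase downstream of IRAK1, was higher in caput by 0.74 ± 0.12 against cauda (adjusted p = 0.000498) and 0.69 ± 0.12 against corpus (adjusted p = 0.000866). Map3k7, which encodes TAK1, lay between 21.9 and 28.7 CPM in all 6 libraries and was not called in any comparison (adjusted p = 0.962, 0.614 and 0.499). That level too depends on the TMM scaling, with 886 and 770 reads in caput and 400 and 526 in cauda before it.

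In the canonical arm, 5 of 6 genes were called higher in caput than in cauda, where 33.9% of all tested genes were called higher. Their median log2 difference over the 6 genes was 1.08. Rela, the main transactivating subunit, had 182 and 162 CPM in caput, 127 and 114 CPM in corpus, and 92.1 and 82.9 CPM in cauda. The regions stepped down without overlap, by 0.98 ± 0.10 for caput against cauda (adjusted p = 1.43e-05), 0.52 ± 0.09 for caput against corpus (adjusted p = 0.001) and 0.46 ± 0.10 for corpus against cauda (adjusted p = 0.00487, or 0.0544 without cauda replicate 2). Nfkb1, the source of p50, had 19.97 and 21.96 CPM in caput, 13.0 and 11.7 CPM in corpus, and 6.81 and 8.34 CPM in cauda. It followed the same order, with caput above cauda by 1.47 ± 0.16 (adjusted p = 2.78e-05) and above corpus by 0.76 ± 0.15 (adjusted p = 0.00167). Corpus was above cauda by 0.70 ± 0.16 (adjusted p = 0.00813), which was not called without corpus replicate 1 (0.0589) or cauda replicate 1 (0.0714).

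The kinase subunits were called higher in caput than in cauda as well. Ikbkb, the catalytic subunit that drives the canonical arm, had 87.5 and 80.7 CPM in caput, 45.1 and 44.0 CPM in corpus, and 32.7 and 33.8 CPM in cauda. All pairs of regions were called, with caput above cauda by 1.34 ± 0.09 (adjusted p = 9.82e-07). Ikbkg, the regulatory subunit NEMO, was higher in caput than in cauda by 0.99 ± 0.14 (adjusted p = 0.000169) and shares 418 exon bases with G6pdx on the opposite strand. Chuk, the catalytic subunit IKK-alpha that also acts below NIK, was higher in caput than in cauda by 0.45 ± 0.09 (adjusted p = 0.00185), a call lost with the gene length trend removed (0.06, adjusted p = 0.534). Its difference between caput and corpus (0.33 ± 0.09, adjusted p = 0.00938) was lost without corpus replicate 2 (0.0916) and was -0.01 with that trend removed. Rel, the lymphoid-enriched subunit c-Rel, was scarce at 0.168 to 1.47 CPM. It was called between caput and corpus (1.80 ± 0.69, adjusted p = 0.0441), a call lost without corpus replicate 1 (1.17, adjusted p = 0.258), caput replicate 1 (0.0855), caput replicate 2 (0.0515) or cauda replicate 2 (0.0543) and with DESeq2 (0.102), and at 3.00 without corpus replicate 2.

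The 3 genes of the non-canonical arm differed by 2.81 to 3.63 between caput and cauda, beside 0.45 to 1.47 for the canonical genes, a contrast between the arms that was not tested. The 0.45 is that of Chuk, whose product acts in both arms. Large differences were not confined to the non-canonical genes. Among the inhibitors, Nfkbie differed by 3.58 and Tnfaip3 by 2.46, while Tnip1, Nfkbia and Nfkbib differed by 0.86, 0.69 and -0.41. Nfkb2, which encodes p100 and its product p52, had 177 and 154 CPM in caput, 26.2 and 25.6 CPM in corpus, and 11.6 and 15.05 CPM in cauda. Each region was apart from the others, and caput exceeded cauda by 3.63 ± 0.13 (adjusted p = 2.86e-08) and corpus by 2.67 ± 0.12 (adjusted p = 1.5e-07), while corpus exceeded cauda by 0.96 ± 0.13 (adjusted p = 0.000474). In the annotation 299 exon bases of Nfkb2 lie opposite Psd and 531 opposite the non-coding AC114539.1. Relb, the partner of p52, had 100.9 and 76.4 CPM in caput, 23.5 and 21.3 CPM in corpus, and 8.26 and 13.25 CPM in cauda. The order was the same, with caput above cauda by 3.04 ± 0.23 (adjusted p = 2.01e-05) and above corpus by 1.99 ± 0.22 (adjusted p = 0.000157). Corpus was above cauda by 1.05 ± 0.24 (adjusted p = 0.0122), a call lost without corpus replicate 1 (0.0864) or corpus replicate 2 (0.0597) and with no filter on low counts (0.0546).

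Map3k14, which encodes NIK, had 13.1 and 12.2 CPM in caput, 2.41 and 1.42 CPM in corpus, and 1.46 and 2.13 CPM in cauda. Caput was above both other regions, by 2.81 ± 0.30 against cauda (adjusted p = 2.33e-05) and 2.73 ± 0.29 against corpus (adjusted p = 2.97e-05), while corpus and cauda overlapped (0.08 ± 0.32, adjusted p = 0.872). The clear cell markers had a median log2 difference of 3.52 between caput and cauda, of the same direction and near the size of these, and their part in the difference was not tested.

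**Figure D4:**
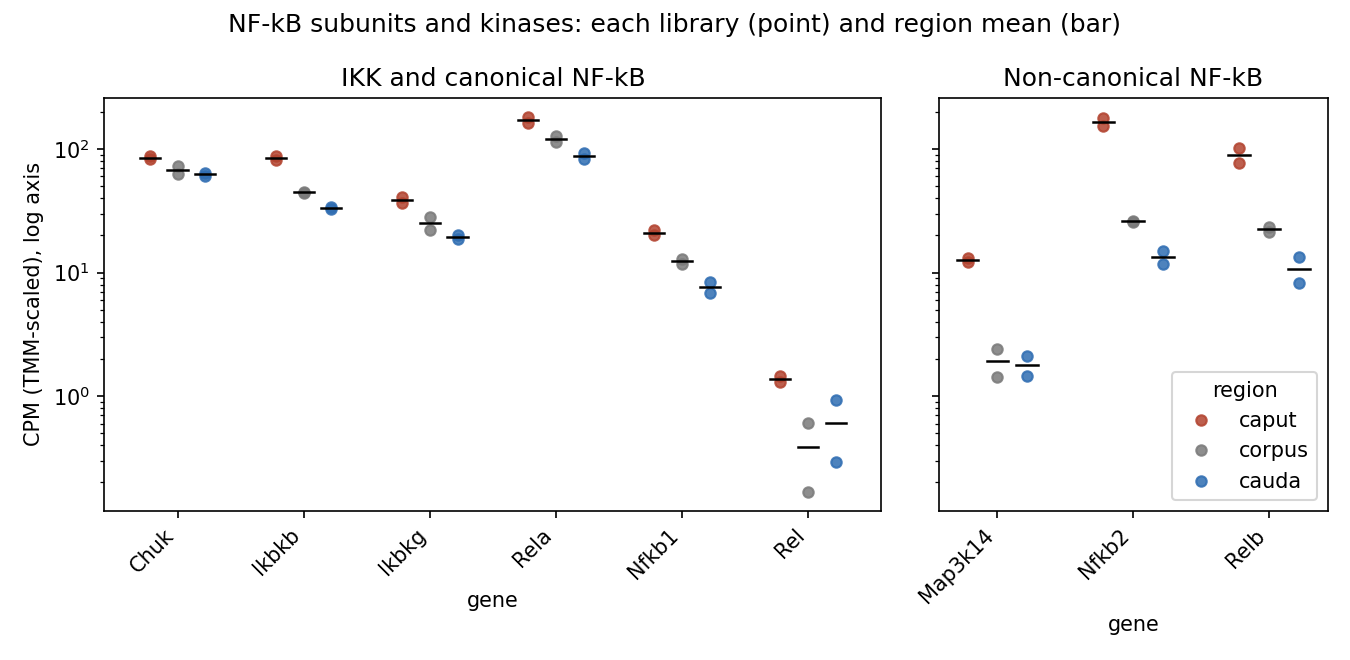
CPM on a log axis of the IkB kinase and canonical NF-kB genes (left) and of the non-canonical genes (right) in each library (points) with region means (bars). Rela lies between 82.9 and 182 CPM in all libraries, whereas Nfkb2 runs from 11.6 to 177 CPM.

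Ratios within a library do not depend on how libraries are scaled. The RPKM ratio of Nfkb2 to Nfkb1 was 15.2 and 12.1 in caput, then 3.47 and 3.77 in corpus and 2.94 and 3.11 in cauda. The ratio of Relb to Rela was 0.465 and 0.396 in caput, then 0.156 and 0.157 in corpus and 0.0754 and 0.134 in cauda. Caput was highest in both, without overlap, though with 2 libraries a region no exact test could pass the threshold and none was run. By mean RPKM, the caput, corpus and cauda ranks among the 43 members were 3, 12 and 13 for Nfkb2 and 5, 13 and 17 for Relb. The ratio of Map3k14 to Traf3 overlapped between the regions, at 0.470 and 0.622 in caput, then 0.351 and 0.208 in corpus and 0.376 and 0.550 in cauda. The ratio of Irak1 to Irak4 was 12.7 and 10.3 in caput, then 18.9 and 15.3 in corpus and 26.9 and 21.4 in cauda.

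The inhibitors differed in level and in regional pattern. Nfkbia, which encodes IkB-alpha and is itself an NF-kB target, ranked 1 by RPKM in every region, with 320 and 313 CPM in caput, 139 and 146 CPM in corpus, and 202 and 189 CPM in cauda. It was lowest in corpus, with caput above corpus by 1.15 ± 0.07 (adjusted p = 1.05e-06) and above cauda by 0.69 ± 0.07 (adjusted p = 2.6e-05), and corpus below cauda by -0.46 ± 0.07 (adjusted p = 0.00122). With library totals the last was -0.19 and not called (adjusted p = 0.0576). The RPKM ratio of Nfkbia to Rela was 3.11 and 3.42 in caput, then 1.95 and 2.27 in corpus and 3.90 and 4.03 in cauda, so that corpus was also lowest within libraries.

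Nfkbie, which encodes IkB-epsilon, had 62.9 and 45.2 CPM in caput, 10.75 and 9.43 CPM in corpus, and 4.54 and 4.47 CPM in cauda. It stepped down along the duct without overlap, with caput above cauda by 3.58 ± 0.19 (adjusted p = 2.41e-07), caput above corpus by 2.42 ± 0.17 (adjusted p = 2.07e-06) and corpus above cauda by 1.16 ± 0.20 (adjusted p = 0.00163). Tnfaip3 encodes A20, a ubiquitin-editing brake on NF-kB, and had 47.1 and 50.95 CPM in caput, 9.35 and 7.15 CPM in corpus, and 9.66 and 8.18 CPM in cauda. Caput stood apart from both other regions, by 2.46 ± 0.16 against cauda (adjusted p = 7.58e-07) and 2.57 ± 0.16 against corpus (adjusted p = 7.3e-07), and corpus and cauda overlapped (adjusted p = 0.642).

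Tnip1, which encodes an A20-binding protein, was the exception in that corpus and caput were both high. It had 77.8 and 62.9 CPM in caput, 84.4 and 78.45 CPM in corpus, and 40.0 and 37.9 CPM in cauda. Corpus was above cauda by 1.06 ± 0.11 (adjusted p = 9.72e-05) and caput above cauda by 0.86 ± 0.11 (adjusted p = 0.000112), while caput and corpus did not pass the test (adjusted p = 0.121). Nfkbib, which encodes IkB-beta, was lower in caput, by -0.41 ± 0.08 against cauda (adjusted p = 0.00118) and -0.47 ± 0.08 against corpus (adjusted p = 0.000569). Library totals turned these to 0.45 and 0.12, and 314 exon bases of Nfkbib lie opposite Ccer2.

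Many genes of this pathway are themselves known NF-kB targets, so the sequences before their starts are shown for genes with large regional differences. RefSeq promoters (build GRCm38.p6, not the mm9 of the counts) matched 36 of the 43 members. In the 250 bases before the start, on either strand, the kB consensus occurred in 11 of the 36 (30.6%), beside 1204 of 27025 genes (4.46%). It occurred in 6 of the 20 (30%) called higher in caput than in both other regions and in 5 of the 16 others (31.2%). Those 16 include 4 members that were not tested and 3 called in no comparison, so the shares do not compare regions. A broader pattern, GGGNNNNNCC, occurred in 28 of 36 members (77.8%; 48.7% of all genes), with 18 of 20 among those highest in caput and 10 of 16 among the others, and the kB word of the kappa light chain enhancer in 1 of 36 (2.78%; 0.159% of all genes). The consensus was adopted after the matches of the other patterns, both of which overlap it, had been seen. The genes printed were picked from members with a match that were highest in caput, with Irak1 as a caput-low gene without. Tlr2, also highest in caput, and the 5 others with a match (Map3k7, Nlrp3, Rel, Tlr3 and Tnip1) are not printed. The choice of printed genes therefore shows no link between matches and region. The windows are Nfkb2 at chr19:46304487-46304736 (plus strand), Nfkbie at chr17:45555450-45555699 (plus), Nfkbia at chr12:55492648-55492897 (minus), Tnfaip3 at chr10:19015411-19015660 (minus), Traf3 at chr12:111166120-111166369 (plus) and Irak1 at chrX:74023922-74024171 (minus). Each is written on the strand of its gene and ends at the base before the start, at the outermost start where RefSeq lists several, and capitals mark matches to the kB consensus.
Nfkb2: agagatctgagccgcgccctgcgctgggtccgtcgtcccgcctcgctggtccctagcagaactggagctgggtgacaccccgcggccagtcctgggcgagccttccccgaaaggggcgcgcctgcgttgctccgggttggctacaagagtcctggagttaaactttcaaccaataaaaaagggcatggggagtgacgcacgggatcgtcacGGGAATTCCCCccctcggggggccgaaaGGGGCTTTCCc
Nfkbie: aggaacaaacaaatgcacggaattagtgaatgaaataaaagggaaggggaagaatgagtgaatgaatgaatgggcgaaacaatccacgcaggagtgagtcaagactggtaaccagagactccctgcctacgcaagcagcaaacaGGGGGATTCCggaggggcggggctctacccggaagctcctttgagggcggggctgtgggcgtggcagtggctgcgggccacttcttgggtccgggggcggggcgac
Nfkbia: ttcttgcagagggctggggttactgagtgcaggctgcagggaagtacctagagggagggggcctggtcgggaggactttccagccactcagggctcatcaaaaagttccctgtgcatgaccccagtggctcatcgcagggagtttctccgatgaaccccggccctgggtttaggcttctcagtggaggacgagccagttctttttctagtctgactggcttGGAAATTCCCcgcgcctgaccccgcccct
Tnfaip3: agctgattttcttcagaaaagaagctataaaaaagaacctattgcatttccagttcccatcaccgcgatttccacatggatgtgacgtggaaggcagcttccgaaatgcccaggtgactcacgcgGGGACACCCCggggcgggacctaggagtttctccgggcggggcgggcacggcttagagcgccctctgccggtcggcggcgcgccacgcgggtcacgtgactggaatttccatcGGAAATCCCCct
Traf3: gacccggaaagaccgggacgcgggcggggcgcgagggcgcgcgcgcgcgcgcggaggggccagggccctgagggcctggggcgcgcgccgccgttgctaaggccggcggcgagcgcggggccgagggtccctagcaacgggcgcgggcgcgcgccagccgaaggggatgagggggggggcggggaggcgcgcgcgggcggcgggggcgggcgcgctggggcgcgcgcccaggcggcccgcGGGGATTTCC
Irak1: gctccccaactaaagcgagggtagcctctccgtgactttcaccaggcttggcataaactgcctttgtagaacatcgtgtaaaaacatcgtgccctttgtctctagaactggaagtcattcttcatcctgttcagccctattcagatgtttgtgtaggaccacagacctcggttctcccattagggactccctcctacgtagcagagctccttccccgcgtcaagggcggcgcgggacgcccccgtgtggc
In Nfkb2 the matches began 39, 38 and 11 bases before the start, those at 39 and 38 overlapping, and in Nfkbia 29 bases before. Nfkbie had its match 106 bases before the start, Tnfaip3 had matches 125 and 12 bases before, and Traf3 had a match in the last 10 bases. A match is a description of letters and not a binding site. Nfkb2 and Nfkbia, which both hold matches, were both called higher in caput than in both other regions. Nfkb2 was lowest in cauda and Nfkbia in corpus, the latter not called against cauda with library totals (-0.19). Any part of the matches in the regional levels was not tested.

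In the NOD branch, Nod1 and Ripk2 were called in no comparison under TMM scaling. Nod1, the sensor of a diaminopimelic acid peptide, had 7.33 and 5.64 CPM in caput, 6.27 and 5.68 CPM in corpus, and 7.80 and 9.05 CPM in cauda. Both cauda libraries lay above all others, by a margin that did not pass the test (adjusted p = 0.137, 0.103 and 0.634 for caput against cauda, corpus against cauda and caput against corpus). Ripk2, the kinase below both NOD sensors, lay between 8.72 and 13.2 CPM in all libraries (adjusted p = 0.0909, 0.680 and 0.220). Nod2, the sensor of muramyl dipeptide, had 46 reads over the caput libraries, 5 in corpus and 2 in cauda. Its caput level was 12.9 times that of cauda (95% counting interval 3.37 to 110, adjusted p = 0.00466) and 5.46 times that of corpus (2.18 to 17.6, adjusted p = 0.0162). Without cauda replicate 1 or 2 the first adjusted p was 0.0548 or 0.0597, and the second was 0.110 without caput replicate 2, 0.0897 without corpus replicate 1 and 0.157 without corpus replicate 2, and 0.103 with DESeq2.

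Among the inflammasome genes, Pycard, which encodes the adaptor ASC, was lowest in caput. It had 26.6 and 29.6 CPM in caput, 48.3 and 53.5 CPM in corpus, and 84.3 and 69.35 CPM in cauda, with no overlap. Caput was below cauda by -1.45 ± 0.12 (adjusted p = 4.15e-06, or -0.83 with the gene length trend removed), caput below corpus by -0.86 ± 0.12 (adjusted p = 0.000173, or -0.27 with library totals, adjusted p = 0.0632) and corpus below cauda by -0.59 ± 0.12 (adjusted p = 0.00361). The NLRP sensors that use ASC were hardly detected: Nlrp3, Nlrp6 and Nlrp10 had at most 0.382 CPM in any library. Nlrp6 had 1 read in all 6 libraries.

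Transcripts of Mavs and Tbk1, which encode signalling proteins of the antiviral branch, were called higher in caput, those of Tbk1 by a small amount. Mavs, the mitochondrial adaptor of the RNA helicase sensors, had 57.1 and 48.8 CPM in caput, 33.5 and 31.4 CPM in corpus, and 23.3 and 23.9 CPM in cauda. Caput was above cauda by 1.17 ± 0.11 (adjusted p = 1.26e-05) and above corpus by 0.71 ± 0.11 (adjusted p = 0.000362), and corpus was above cauda by 0.46 ± 0.11 (adjusted p = 0.012), the last being lost without corpus replicate 1, cauda replicate 1 or cauda replicate 2 (0.0790, 0.0774 and 0.0592). Tbk1, the kinase that activates IRF3, lay between 33.3 and 46.0 CPM. It was called higher in caput than in cauda (0.30 ± 0.10, adjusted p = 0.022) and corpus (0.35 ± 0.10, adjusted p = 0.0115). The first was lost without caput replicate 1, cauda replicate 1 or cauda replicate 2 (0.116, 0.103 and 0.0646) and the second without caput replicate 1 or corpus replicate 2 (0.0659 and 0.0828).

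**Figure D5:**
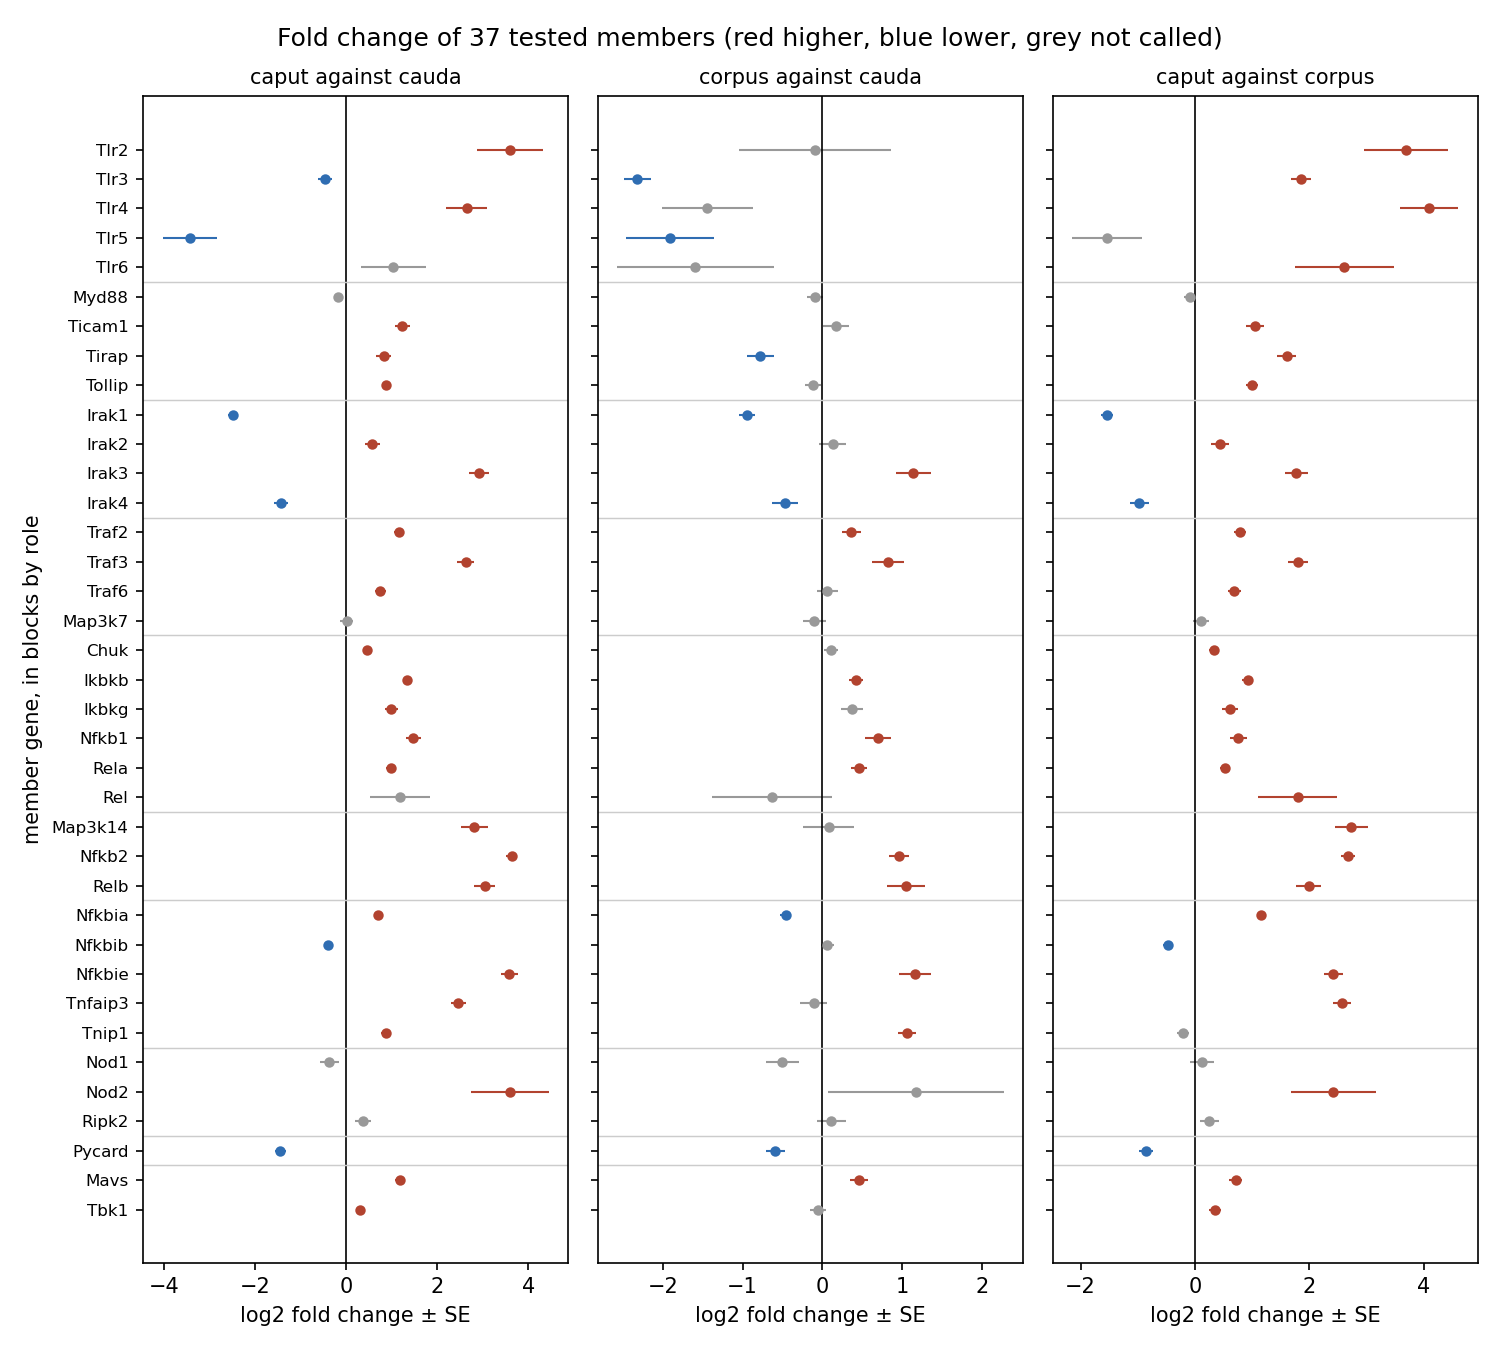
Log2 fold change ± SE (x axis) of the 37 tested members (rows, by role) in the 3 comparisons (panels), red where called higher in the first region, blue where called lower and grey where not called. Nfkb2, Nfkbie and Relb lie farthest to the right among the NF-kB genes in caput against cauda, at 3.63, 3.58 and 3.04.

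Genes around the pathway were read from lists of 93 further genes, of which 92 were found and 76 tested. In caput against cauda 43 were called higher and 14 lower, in caput against corpus 38 and 18, and in corpus against cauda 15 and 14, with medians of 0.53, 0.72 and 0.06. The shares called were 75%, 73.7% and 38.2%, near the 66.9%, 65.0% and 35.4% of all tested genes. Of 6 receptors upstream of the non-canonical arm, 4 were called higher and 1 lower in caput than in cauda, beside 33.9% and 33.0% of all tested genes. Tnfrsf12a, the receptor of TWEAK, had 144 and 129 CPM in caput, 14.2 and 17.0 CPM in corpus, and 7.91 and 10.1 CPM in cauda. Its caput level exceeded cauda by 3.92 ± 0.14 (adjusted p = 2.87e-08), or by 4.85 with the gene length trend removed. Tnfrsf11a, which encodes RANK, was higher in caput than in cauda by 3.18 ± 0.32 (adjusted p = 4.51e-05), and Tnfrsf1b, a TNF receptor, by 2.46 ± 0.18 (adjusted p = 2.09e-06). The receptor called lower was Ltbr, which encodes the lymphotoxin-beta receptor (-0.40 ± 0.10, adjusted p = 0.00679). It had 57.3 and 47.95 CPM in caput, 25.1 and 24.6 CPM in corpus, and 71.3 and 68.2 CPM in cauda.

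All 4 receptors of the canonical arm were called higher in caput than in both other regions, where 26.8% of all tested genes met that criterion. Il18r1, the interleukin-18 receptor, was higher than in cauda by 3.67 ± 0.25 (adjusted p = 1.21e-06) and Tnfrsf1a, the main TNF receptor, by 1.56 ± 0.10 (adjusted p = 1.01e-06). Il1r1, the interleukin-1 receptor that signals through MyD88, had 40.8 and 36.0 CPM in caput, 7.45 and 6.79 CPM in corpus, and 26.8 and 26.3 CPM in cauda. It was lowest in corpus, by -1.90 ± 0.13 against cauda (adjusted p = 6.61e-06). With the gene length trend removed, its difference between caput and cauda went from 0.53 to 0.18 and was no longer called (adjusted p = 0.169). Bcl3, an atypical IkB protein that binds p52, was also lowest in corpus, with 12.2 and 12.0 CPM in caput, 1.29 and 1.72 CPM in corpus, and 4.71 and 3.82 CPM in cauda.

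Of the TLR co-receptor and trafficking list, 10 of 15 genes were tested, and 3 were called higher and 4 lower in caput than in cauda. That is 70% called, near the 66.9% of all tested genes. Ly96, which encodes MD-2, the co-receptor that TLR4 needs to bind lipopolysaccharide, had 9.33 and 10.5 CPM in caput, 25.8 and 35.1 CPM in corpus, and 31.6 and 34.7 CPM in cauda. It thus ran opposite to Tlr4, with caput below cauda by -1.74 ± 0.16 (adjusted p = 1.04e-05), or -0.56 with the gene length trend removed. Sarm1, an adaptor that restrains TRIF, was highest in corpus at 35.8 and 35.8 CPM, against 3.96 and 2.53 CPM in caput and 5.53 and 5.78 CPM in cauda. Corpus exceeded cauda by 2.66 ± 0.20 (adjusted p = 1.02e-05). Its lower level in caput than in cauda (-0.79 ± 0.21, adjusted p = 0.00828) was lost without cauda replicate 2 (0.0538) and turned to 0.06 with library totals. Unc93b1, the chaperone of endosomal TLRs, was higher in caput than in corpus by 1.54 ± 0.13 (adjusted p = 5.94e-06).

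Of 22 ubiquitin and kinase partners, all tested, 11 were called higher and 5 lower in caput than in cauda. That is 72.7% called, again near the 66.9% of all tested genes. Peli2, an IRAK-binding ubiquitin ligase, was highest in corpus at 57.45 and 47.2 CPM, against 15.7 and 13.6 CPM in caput and 6.28 and 5.34 CPM in cauda. Corpus exceeded cauda by 3.17 ± 0.16 (adjusted p = 1.17e-06) and caput was below corpus by -1.84 ± 0.14 (adjusted p = 3.78e-06). Traf5 was lower in caput than in corpus by -2.29 ± 0.22 (adjusted p = 1.36e-05). Ikbke, a kinase related to TBK1, was higher in caput than in corpus by 2.20 ± 0.43 (adjusted p = 0.00164).

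Of 7 tested nucleic acid sensing genes, 6 were called higher in caput than in cauda, where 33.9% of all tested genes were called higher. Ddx58, which encodes the RNA sensor RIG-I upstream of MAVS, had 92.7 and 70.9 CPM in caput, 10.9 and 11.05 CPM in corpus, and 8.26 and 9.49 CPM in cauda. Caput stood apart, by 3.20 ± 0.16 against cauda (adjusted p = 1.35e-07). Tmem173, which encodes STING, was higher in caput than in cauda by 3.05 ± 0.26 (adjusted p = 6.14e-06), and Dhx58, a helicase related to RIG-I, by 1.75 ± 0.29 (adjusted p = 0.00052). Of 16 inflammasome genes, 9 were tested, and 6 were called higher and 0 lower in caput than in cauda. That is 66.7% called, near the 66.9% of all tested genes, where 33.9% were called higher. Those called higher included Gsdmd, the pore-forming gasdermin D (3.45 ± 0.50, adjusted p = 0.000343, and 4.17 without cauda replicate 2), Il18 (1.72 ± 0.28, adjusted p = 0.000445, and 2.83 with the gene length trend removed) and Casp8 (0.53 ± 0.09, adjusted p = 0.000737). Naip1, Nlrc5 and Casp4 were also called higher but rest on few reads in the cauda libraries (1 and 0, 1 and 12, and 3 and 11). Casp1, which encodes caspase-1, was among the genes not tested, with 2 to 9 reads per library. Pycard was thus lower where Gsdmd, Il18 and Casp8 were higher.

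Of 15 tested NF-kB target genes, 8 were called higher and 4 lower in caput than in cauda, with a median of 1.89, where 33.9% and 33.0% of all tested genes were called. Cxcl10, an interferon-induced chemokine, had 24.0 and 18.8 CPM in caput, 0.952 and 4.92 CPM in corpus, and 0.407 and 0.545 CPM in cauda, and was higher in caput than in cauda by 5.47 ± 0.83 (adjusted p = 0.00283). Ptgs2, the inducible cyclooxygenase, ran the other way, with 0.440 and 0.786 CPM in caput, 4.09 and 2.99 CPM in corpus, and 15.9 and 9.38 CPM in cauda. Its caput level was below cauda by -4.37 ± 0.39 (adjusted p = 8.47e-06). Cxcl5, a chemokine for neutrophils, was lower in caput than in cauda by -3.15 ± 0.36 (adjusted p = 4.44e-05).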

How the data were processed

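RNA of EGFP-sorted clear cells was sequenced in 6 libraries, 2 each from caput, corpus and cauda, prepared with the Clontech SMARTER kit per the labels' protocols. The authors deposited whole-number counts, 1 file a library, and RPKM values for all genes beside a gene length in bases. STAR, HTSeq, edgeR and the build mm9 are listed by the submitters' processing notes, with versions not given in the sources used here. Deposited counts are unstranded, per the file names. Rows for reads in no gene (6.67% to 9.48%), in several genes (1.39% to 1.83%) or aligned to many places (33.1% to 38.6%) were left out.

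Counts of all genes were tested with edgeR 4.0.16 under R 4.3.3, with a filterByExpr filter by region, TMM factors (0.7612 to 1.415), robust quasi-likelihood fits of the 6 libraries on region alone, leaving 3 residual degrees of freedom, and two-sided tests with Benjamini-Hochberg adjustment over 15816 genes. The SE is the absolute log2 fold change over the square root of F, an approximation. The procedure was tested on simulated data. Replicates of a region differed beyond sampling noise (chi-square over degrees of freedom 9.569 to 17.18).

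The members and lists were chosen with earlier results of these data known. Libraries are given in full for members called with an absolute log2 fold change of at least 1 and at least 5 CPM in the highest region. They are also given for 9 further fixed genes. Up to 3 genes are named per further list by size of change, and Ltbr, Casp1, Casp4, Naip1 and Nlrc5 are named beside them. Traf6, Chuk, Ikbkg and the low-count receptors are given by differences or ranges. Promoters came from RefSeq, and 3 motifs were searched. Exon overlaps came from GENCODE M21 and were looked up after the data had been seen: 12 members share exon bases with another gene, 7 of them with a protein-coding one. Those not noted above include Irak3 (192 bases opposite Tmbim4), Pycard (485 opposite Gm45205), Tirap (446 opposite Gm39318) and Tlr3 (381 opposite Gm45542).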

Additional observations from a re-analysis of the deposited data

How the results depend on the processing

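Of 14 alternatives per comparison, each run for every tested member (an extension of the planned set, chosen after seeing the data), all kept 21 of the 25 members called higher and 4 of the 6 called lower in caput than in cauda, 20 of 27 and 1 of 4 in caput against corpus, and 5 of 11 and 3 of 7 in corpus against cauda. Leaving out libraries moved the corpus against cauda counts most, to between 6 and 11 higher and between 4 and 7 lower. Members called higher there numbered 6 without corpus replicate 1 and 7 without cauda replicate 1, and those called lower 4 without corpus replicate 2. Library totals left 1 member lower in caput than in corpus and reversed Tlr3 (0.39), Nfkbib (0.45) and Sarm1 (0.06) in caput against cauda and Nfkbib (0.12) in caput against corpus. Library totals also ended the calls of Nfkbia (-0.19) and Irak4 (-0.20) in corpus against cauda and of Irak4 (-0.38) and Pycard (-0.27) in caput against corpus. Removing the gene length trend ended those of Chuk (0.06), Irak2 (0.20) and Il1r1 (0.18) in caput against cauda and of Irak2 (0.09) and Ikbkg (0.28) in caput against corpus. It reversed Chuk in caput against corpus (-0.01), as it did with the replicate block (-0.01); the cause was not tested.

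Same-numbered libraries deviated together only weakly (correlations of 0.19, 0.16 and 0.13), and nothing in the labels says that a number marks a shared batch. With the replicate block, the counts were 25 higher and 6 lower for caput against cauda, 27 and 5 for caput against corpus, and 11 and 8 for corpus against cauda. With 2 libraries a region, genes under about 1 CPM rest on few reads, which limits Tlr1, Tlr6, Tlr7, Tlr9, Rel, Nod2 and the NLRP genes. The same limit holds in the low regions of Tlr2 (6 reads over corpus and 6 over cauda), Tlr4 (12 over corpus) and Tlr5 (32 over caput).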
